A study of Mus musculus with 16 samples.

Results

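Myosin heavy chains are the motor proteins of the thick filament, and 10 of their genes in mouse quadriceps muscle are described here: *Myh1*, *Myh2*, *Myh3*, *Myh4*, *Myh6*, *Myh7*, *Myh7b*, *Myh8*, *Myh9* and *Myh11*. They are the rows of the raw count table with these symbols, 1 row for each, so that 10 of the 41388 genes of the table were taken, and each isoform was also expressed as a share of the summed counts of the 10 genes in a library. RNA was sequenced from 16 mice in 4 groups of 4 libraries. The wild-type mice (WT) and their littermates lacking *Mtm1* (*Mtm1* KO, labelled mtm1 -/-) were on the C57BL/6 background and 36 days old per the labels. The knockout allele lacks exon 4 of *Mtm1*, which encodes a phosphoinositide phosphatase and is mutated in X-linked myotubular myopathy. Mice of the WT + TAM and *Mtm1* KO + TAM groups received tamoxifen at 40 mg/kg in the chow from 21 days of age, and the other groups were untreated. The main set was the 14 libraries that the study kept, that is, 3 WT and 3 *Mtm1* KO mice without treatment and 4 of each genotype with tamoxifen. p-values measure the spread between these mice.

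The head of a myosin heavy chain binds actin and splits ATP, and the rate at which it does so sets how fast a fiber shortens. Adult mouse limb fibers are named for the chain they use: type 2B (*Myh4*), 2X (*Myh1*) and 2A (*Myh2*) are fast, and type 1 (*Myh7*) is slow. Embryonic (*Myh3*) and perinatal (*Myh8*) chains are used by developing fibers, are replaced by adult chains after birth, and return in regenerating fibers. *Myh6* is the fast chain of the heart, *Myh7b* is an ancient slow-type chain, *Myh9* is a nonmuscle chain of most cells, and *Myh11* is the smooth muscle chain.

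Among the members, 5 lie in a row on the plus strand of chromosome 11 (GRCm38, annotation GENCODE vM21): *Myh3* at 67078300 to 67102291, *Myh2* at 67171027 to 67197517, *Myh1* at 67200052 to 67224575, *Myh4* at 67238029 to 67260446 and *Myh8* at 67277124 to 67308634. *Myh6* (54941921 to 54966927) and *Myh7* (54970684 to 54994626) are neighbors on the minus strand of chromosome 14. *Myh7b* is on the plus strand of chromosome 2 (155611212 to 155634307), *Myh9* on the minus strand of chromosome 15 (77760587 to 77842175) and *Myh11* on the minus strand of chromosome 16 (14194535 to 14291372). Their longest coding transcripts are alike in size, with 5805 to 5937 coding bases.

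The sequences before the start sites are shown for *Myh3*, *Myh8* and *Myh4*, the members whose levels differed most clearly between genotypes. They are the 250 bases upstream of the RefSeq start (GRCm38.p6, plus strand) of *Myh3* (chr11:67078050-67078299), *Myh8* (chr11:67276874-67277123) and *Myh4* (chr11:67237562-67237811). Capitals mark matches, on either strand, to the TATA box (TATAAA), the E-box (CANNTG) of myogenic factors, the MCAT element (CATTCC) of TEAD factors and the MEF2 site (CTANNNNTAG), and a run that promoters of this cluster share.
Myh3: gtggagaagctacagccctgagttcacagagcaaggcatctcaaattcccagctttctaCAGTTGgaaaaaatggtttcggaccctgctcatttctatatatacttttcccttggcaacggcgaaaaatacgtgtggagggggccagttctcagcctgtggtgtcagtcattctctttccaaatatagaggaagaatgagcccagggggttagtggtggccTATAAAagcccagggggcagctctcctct
Myh8: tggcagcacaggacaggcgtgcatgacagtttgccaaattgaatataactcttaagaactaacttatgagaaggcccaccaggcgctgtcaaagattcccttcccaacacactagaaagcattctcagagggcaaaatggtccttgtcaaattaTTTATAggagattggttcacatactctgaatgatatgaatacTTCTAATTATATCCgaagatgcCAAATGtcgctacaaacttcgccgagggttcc
Myh4: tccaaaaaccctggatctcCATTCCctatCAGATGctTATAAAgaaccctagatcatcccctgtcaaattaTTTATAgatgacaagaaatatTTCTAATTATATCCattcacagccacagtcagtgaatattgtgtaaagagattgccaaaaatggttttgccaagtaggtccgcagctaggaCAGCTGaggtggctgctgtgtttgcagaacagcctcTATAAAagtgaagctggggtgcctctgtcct

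The *Myh3* window held 1 TATA box match and 1 E-box, the *Myh8* window 1 of each, and the *Myh4* window 3 TATA box matches, 2 E-boxes and 1 MCAT element. Relative to the start site, the TATA box match lay at -29 to -24 in *Myh3*. In *Myh8* it lay at -96 to -91 and on the minus strand (TTTATA). The *Myh4* matches lay at -213 to -208, -179 to -174 and -31 to -26. None of these motifs overlapped another in the 3 windows. Among 32851 RefSeq promoter windows of this length, 12.4% held the TATA box, 66.2% the E-box, 12.6% the MCAT element and 3.2% the MEF2 letters, which none of the members' windows held. The 14-base run TTCTAATTATATCC was the longest stretch common to the windows of *Myh1*, *Myh2*, *Myh4* and *Myh8*, and these were the only 4 windows of the 32851 that held it (0.0122%). It starts 160 bases before the start site of *Myh1*, 158 before *Myh4*, 125 before *Myh2* and 54 before *Myh8*. The windows of *Myh3*, *Myh6*, *Myh7*, *Myh7b* and *Myh9* did not hold it. RefSeq windows were matched for 9 of the 10 members, and *Myh11* had none in the table used.

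The quadriceps libraries were dominated by type 2B myosin in WT and less so in *Mtm1* KO. *Myh4* took 88.9, 97.7 and 82.4% of the members' counts in the 3 WT libraries and 87.1, 91.6, 84.6 and 84.5% in the 4 WT + TAM libraries. In *Mtm1* KO its share was 58.3, 66.6 and 74.9%, and in *Mtm1* KO + TAM 53.9, 52.8, 67.4 and 67.8%. Within the main set, every *Mtm1* KO library lay below every WT library, with or without tamoxifen.

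**Figure D1:**
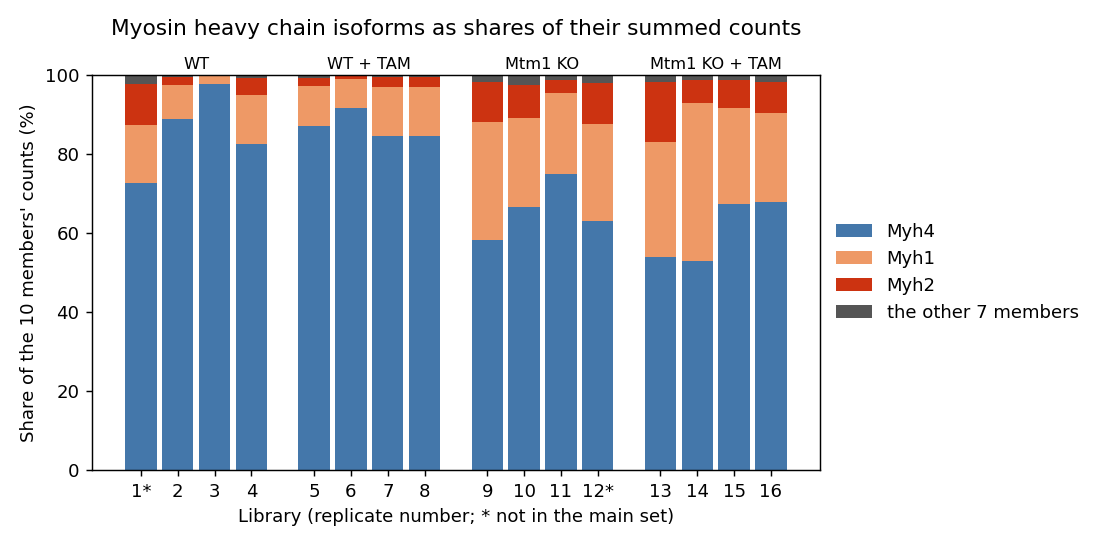
Stacked bars give each library's share of the 10 members' summed counts (y axis, %) taken by *Myh4*, *Myh1*, *Myh2* and the other 7 members together, by group and replicate number on the x axis. *Myh4* takes 82.4% or more in the WT and WT + TAM libraries of the main set and 74.9% or less in both knockout groups; the starred libraries are the 2 outside the main set.

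The mean *Myh4* share was 89.7% ± 7.68 (SD, n = 3) in WT and 66.6% ± 8.32 (SD, n = 3) in *Mtm1* KO, a difference of -23.1 percentage points, for which an exact two-sided permutation test gave p = 0.1, the smallest that 3 against 3 allows. With tamoxifen in both genotypes, it was 87.0% ± 3.32 (SD, n = 4) and 60.5% ± 8.25 (SD, n = 4), a difference of -26.5 points with an exact permutation p = 0.0286, the smallest for 4 against 4. The 3 adult fast chains together kept 97.4 to 98.8% of the counts in *Mtm1* KO against 99.1 to 99.7% in WT. Within that sum, *Myh1* plus *Myh2* took 9.72% ± 7.4 (SD, n = 3) in WT and 31.5% ± 8.03 (SD, n = 3) in *Mtm1* KO. The members' summed counts were 3.19 to 4.65% of all counts in WT, 3.47 to 4.29% in WT + TAM, 2.37 to 2.96% in *Mtm1* KO and 2.56 to 3.12% in *Mtm1* KO + TAM. Wilson 95% intervals on a library's *Myh4* share were at most 0.255 points wide, which covers counting error only, so the differences between mice were far larger than the depth limit.

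Total counts were 25116179 to 29847222 per library, and *Mtm1* itself had 282 to 459 counts in the WT and WT + TAM libraries of the main set against 53 to 97 in the knockout libraries. The library labelled WT replicate 1, left out by the study with KO replicate 12, had 74 *Mtm1* counts, within the range of the *Mtm1* KO libraries. Its *Myh4* share was 72.7%, also among the *Mtm1* KO values, but its *Myh3* share of 0.0105% (interval 0.00818 to 0.0135%) was at the WT level. KO replicate 12 had a *Myh4* share of 63.0%, within the range of the other *Mtm1* KO libraries. Its *Myh3* share of 0.221% lay above their 0.165 to 0.183%, and its *Myh8* share of 0.161% above their 0.0875 to 0.111%. WT replicate 3 and WT + TAM replicate 6 also stood apart, with 29 and 86 *Myh7* counts against 686 or more in the other libraries of the main set. The 8 skeletal muscle markers had no gene at 0 in any group. WT + TAM replicates 7 and 8 were the most alike pair of libraries within a group. Over genes with at least 10 summed counts, the chi-square of their counts per degree of freedom was 11.7, where counting noise alone gives about 1, against 31.4 to 83.7 for the other pairs of the main set. They were counted as 2 samples. Whether they are independent mice was not tested, so p-values that use WT + TAM may understate the spread between mice.

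Per length of transcript, in deposited RPKM (reads scaled by gene length and library size), the order was *Myh4*, *Myh1* and *Myh2* in every group, at 6000 ± 1590, 442 ± 261 and 99.5 ± 92.9 RPKM in WT (SD, n = 3). In *Mtm1* KO the same chains stood at 3050 ± 546, 1060 ± 291 and 279 ± 139 RPKM (SD, n = 3). Ranges of *Myh4* and *Myh1* did not meet in any group, whereas those of *Myh1* and *Myh2* overlapped in WT. *Myh9* (8.38 ± 1.48 RPKM), *Myh7* (8.03 ± 7.18) and *Myh11* (7.35 ± 1.15) followed in WT with overlapping ranges (SD, n = 3). *Myh3*, *Myh7b*, *Myh8* and *Myh6* came last in WT, between 0.074 and 0.797 RPKM in single libraries, and each overlapped the next. In *Mtm1* KO, *Myh3* stood at 8.03 ± 1.37 RPKM (SD, n = 3), within the range that *Myh7*, *Myh9* and *Myh11* had in WT, and above *Myh8* at 2.40 ± 0.316 RPKM. RPKM of *Myh8* and *Myh9* are divided by long gene models of 11772 and 12928 exonic bases, about as long as the lengths behind the deposited values (11777 and 12933).

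**Figure D2:**
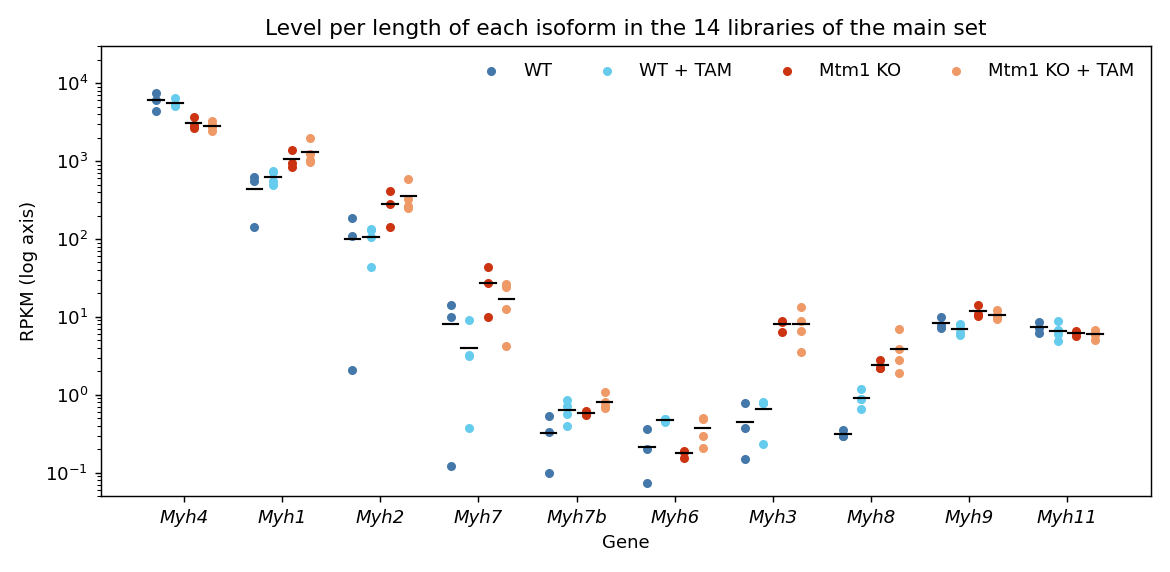
Points are the RPKM of single libraries (y axis, log scale) for each isoform (x axis), colored by group, and bars are group means over the 14 libraries of the main set. *Myh3* and *Myh8* sit below 1.2 RPKM in all WT and WT + TAM libraries and above 1.9 RPKM in all knockout libraries, while *Myh4* is the highest gene in every group.

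Reads of these genes are not equally certain. Of the 50-base stretches of *Myh1* transcripts, 30.5% also occur in another gene, most often *Myh2*. The shares were 24.6% for *Myh2*, 18.9% for *Myh4*, 20.2% for *Myh6* (all with *Myh7*), 20.0% for *Myh7*, 12.1% for *Myh8*, 4.76% for *Myh3*, 0.68% for *Myh9*, 0.34% for *Myh11* and 0% for *Myh7b*. How the counting treated reads that match several genes is not given in the sources used here. By this measure the values of *Myh1*, *Myh2*, *Myh4*, *Myh6* and *Myh7* are the least certain. *Myh8* shared stretches most often with *Myh2*, which is far more abundant, so its values are uncertain as well. The antisense gene listed as Gm12300 (*Myhas* in the annotation, minus strand of chromosome 11, 67211256 to 67237573) covers 8.11% of the *Myh1* exon bases and had 3072 to 4169 counts in WT and 1173 to 2027 in *Mtm1* KO. These counts equalled 2.79 to 16.6% of the *Myh1* counts in WT and 0.51 to 1.2% in *Mtm1* KO. The strand setting is not given, so in the shared bases the reads of both genes cannot be told apart.

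Levels between groups were compared on counts scaled to library size with TMM factors (normalized CPM), with edgeR's quasi-likelihood test and Benjamini-Hochberg adjustment over all genes tested, and a gene was called at an adjusted p of at most 0.01. All 10 members passed the filter on low counts in every comparison. In *Mtm1* KO against WT, 2 members were called higher, *Myh3* and *Myh8*, beside 1.91% of the 14740 genes tested, and none was called lower, beside 1.69%. In *Mtm1* KO + TAM against WT + TAM, the same 2 were called higher (3.42% of 14563 genes) and *Myh4* was called lower (3.3%). Normalized CPM did not overlap between the genotypes for 5 members without tamoxifen, where 36.3% of all genes did not, and for 7 members with it, where 22.5% did not. The members' median log2 fold change was 0.76 in the first comparison and 0.56 in the second, and the median over all genes tested was 0.02 and -0.01. The TMM factors were 0.843 to 0.942 in the wild-type libraries and 1.02 to 1.18 in the knockout libraries, so scaling by library size alone would move the median of all genes to 0.33 and 0.27. Limma on log2 RPKM also uses no TMM factors. Its medians were 0.32 and 0.25 at a pseudocount of 0.1, and 0.20 and 0.16 at a pseudocount of 1. Calls of higher members under these settings carry that shift.

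**Figure D3:**
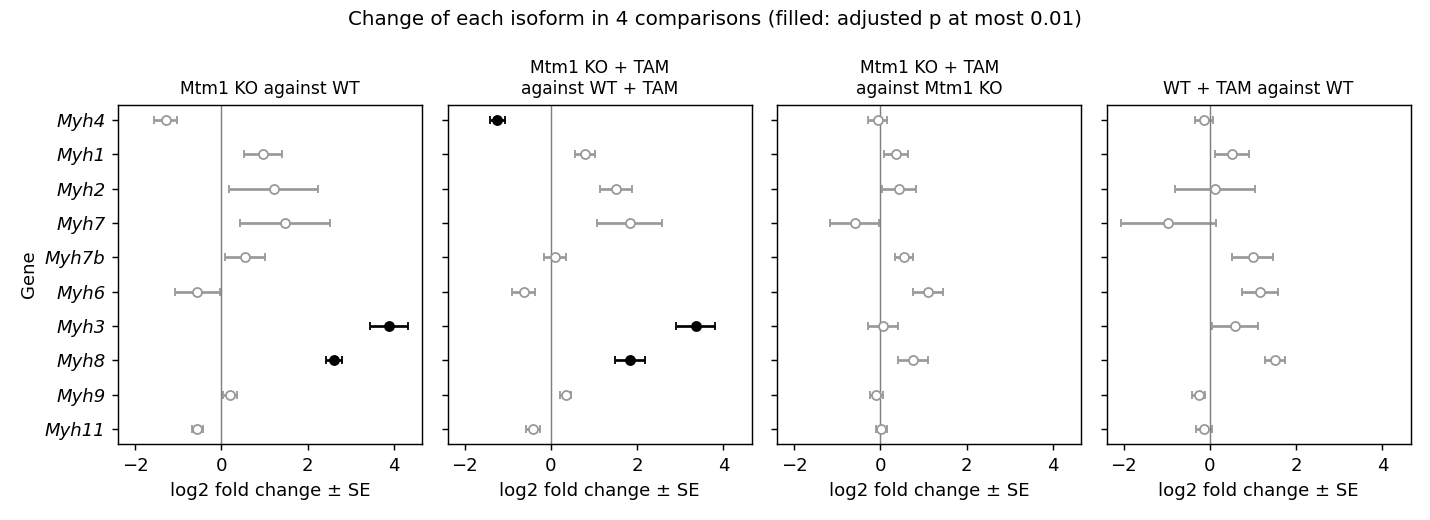
Each point is the log2 fold change of an isoform with its standard error (x axis), for 4 comparisons side by side, and filled points had an adjusted p of at most 0.01 by edgeR. *Myh3* and *Myh8* are filled on the right in both comparisons of genotype, *Myh4* is filled on the left in the one with tamoxifen, and no point is filled in the 2 comparisons of tamoxifen.

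*Myh4*, the type 2B chain of the fastest fibers, stood at 38800, 53900 and 28600 normalized CPM in WT and at 15000, 13600 and 20100 in *Mtm1* KO. The groups did not overlap, and *Myh4* was 2.45-fold lower in *Mtm1* KO (log2 -1.30, SE 0.27), with an adjusted p = 0.0184 in edgeR's quasi-likelihood test that missed the threshold. It was called by DESeq2 (adjusted p = 6.24e-07) and edgeR's exact test (adjusted p = 7.46e-05), and by the quasi-likelihood test with no filter on low counts (adjusted p = 0.00101) or in 1 fit of 4 groups (adjusted p = 0.0015). It was not called with limma, with other scalings, with 16 libraries or with any library left out. DESeq2 and the exact test called 1678 and 1452 of all genes, where the main fit called 282 higher and 249 lower. With tamoxifen, *Myh4* was at 34200, 43000, 35700 and 34700 normalized CPM in WT and at 14400, 14800, 14700 and 18500 in *Mtm1* KO. Here *Myh4* fell 2.36-fold (log2 -1.24, SE 0.16, edgeR adjusted p = 8.33e-04). The 8 skeletal muscle markers were *Acta1*, *Ckm*, *Pygm* and the fast fiber genes *Mylpf*, *Tnnt3*, *Tnni2*, *Actn3* and *Casq1*. The summed level of these markers was also lower without overlap, at 137000 to 180000 normalized CPM in WT and 80700 to 92500 in *Mtm1* KO. Its part in the *Myh4* result was not tested. In bulk muscle, fewer fibers of a type and less RNA per fiber cannot be told apart.

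*Myh1*, the type 2X chain, was at 3730, 1080 and 4360 normalized CPM in WT and 7630, 4590 and 5470 in *Mtm1* KO. The lowest *Mtm1* KO library lay just above the highest WT library, and the change was not called (log2 0.97, SE 0.44, edgeR adjusted p = 0.173). Under tamoxifen, the values were 3940, 3420, 5200 and 5090 in WT and 7730, 11200, 5300 and 6150 in *Mtm1* KO, again without overlap and not called (log2 0.78, SE 0.24, edgeR adjusted p = 0.0429), whereas DESeq2 (adjusted p = 0.00427) and edgeR's exact test (adjusted p = 0.00913) called it, as did limma at a pseudocount of 0.1 and scaling by library size alone. As a share of the members' counts, *Myh1* ranged from 1.96 to 12.5% in WT against 20.4 to 29.8% in *Mtm1* KO, and from 7.29 to 12.4% in WT + TAM against 22.5 to 40.0% in *Mtm1* KO + TAM (exact permutation p = 0.1 and 0.0286). Shares are parts of the same sum, so a lower *Myh4* share raises that of *Myh1*, and these p-values are not separate from those for *Myh4*. *Mtm1* KO + TAM replicate 14 had the highest *Myh1* share, 40.0%, and the lowest ratio of *Myh4* to *Myh1* counts, 1.32. That ratio was 1.96 to 3.67 in *Mtm1* KO, 6.57 to 49.8 in WT and 6.82 to 12.6 in WT + TAM.

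*Myh2*, the type 2A chain of oxidative fast fibers, varied most among the fast chains. WT libraries had 829, 17.5 and 1460 normalized CPM, and *Mtm1* KO libraries 2590, 1720 and 915. The ranges overlapped, and the log2 fold change of 1.21 (SE 1.02) was not called (edgeR adjusted p = 0.467). In the tamoxifen groups, WT libraries had 865, 345, 1080 and 1050 and *Mtm1* KO libraries 4120, 1680, 1510 and 2190, without overlap. That difference had a log2 fold change of 1.51 (SE 0.38) and missed the threshold in edgeR's quasi-likelihood test (adjusted p = 0.02). DESeq2 (adjusted p = 0.00854) and edgeR's exact test (adjusted p = 0.00104) called it, as did limma, the fit with no filter and scaling by library size alone.

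*Myh7*, the slow chain of type 1 fibers, was likewise lowest in WT replicate 3 and WT + TAM replicate 6. Its normalized CPM was 89.6, 1.25 and 132 in WT replicates 2, 3 and 4 and 204, 327 and 77.9 in *Mtm1* KO replicates 9, 10 and 11. With tamoxifen it was 89.0, 3.51, 29.6 and 31.0 in WT replicates 5 to 8 and 205, 32.7, 93.4 and 211 in *Mtm1* KO replicates 13 to 16. The groups overlapped in both comparisons, and neither change was called (log2 1.47, SE 1.05, edgeR adjusted p = 0.384, and log2 1.82, SE 0.75, edgeR adjusted p = 0.117).

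The spread of *Myh7* went with that of other slow fiber genes. Summed normalized CPM of 9 slow fiber genes (*Tnnt1*, *Tnni1*, *Tnnc1*, *Myl2*, *Myl3*, *Tpm3*, *Atp2a2*, *Casq2* and *Myoz2*) was 166 in WT replicate 3 and 192 in WT + TAM replicate 6, the 2 libraries with the least *Myh7*, and 491 to 939 in the other WT and WT + TAM libraries. It was 660 to 1640 in *Mtm1* KO and 696 to 1500 in *Mtm1* KO + TAM. In WT replicate 3, *Myh2* was at 17.5 and *Myh1* at 1080 normalized CPM, both the lowest of the 14 libraries, and *Myh4* at 53900 was the highest.

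**Figure D4:**
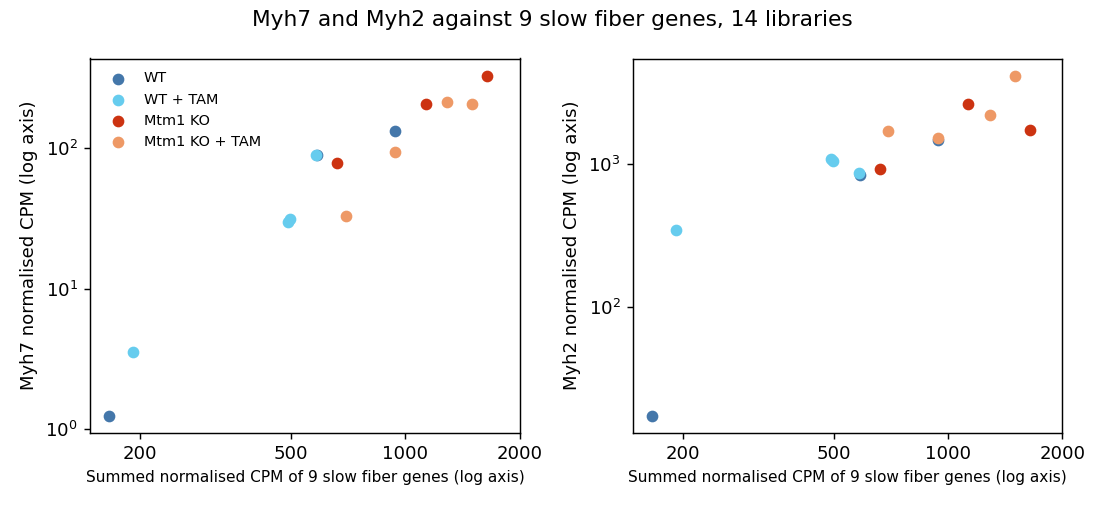
Each point is a library of the main set, with the summed normalized CPM of 9 slow fiber genes on the x axis and that of *Myh7* (left) or *Myh2* (right) on the y axis, all log scales, colored by group. WT replicate 3 and WT + TAM replicate 6 lie at the lower left, at 166 and 192 on the x axis and 1.25 and 3.51 for *Myh7*.

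The 2 remaining striated chains were scarce. *Myh7b* had 18 to 99 counts in WT and 99 to 106 in *Mtm1* KO, or 0.774 to 3.92 against 3.29 to 3.52 normalized CPM, with overlap and no call (log2 0.54, SE 0.47, edgeR adjusted p = 0.472). With tamoxifen its values were 2.85 to 6.50 in WT and 4.04 to 6.39 in *Mtm1* KO (log2 0.09, SE 0.26, edgeR adjusted p = 0.848). *Myh6*, the heart chain, had 13 to 64 counts in WT and 28 to 32 in *Mtm1* KO, at most 2.53 normalized CPM. Its log2 fold change was -0.56 (SE 0.52, edgeR adjusted p = 0.509), and with tamoxifen in both genotypes -0.63 (SE 0.27, edgeR adjusted p = 0.124). Of 8 heart muscle markers, 4 had no count in WT and 2 none in *Mtm1* KO, and 3 passed the filter; the 1 called higher was *Sln*, the SERCA inhibitor sarcolipin, which skeletal muscle also uses (log2 6.16, SE 0.68, edgeR adjusted p = 0.00131).

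The developmental chains separated the genotypes in every library. *Myh3*, the embryonic chain, was at 2.44, 1.08 and 5.26 normalized CPM in WT and at 46.9, 33.8 and 48.0 in *Mtm1* KO. It rose 14.8-fold (log2 3.89, SE 0.44, edgeR adjusted p = 0.00134), and without WT replicate 4, the highest WT library, the log2 value was 4.61 (edgeR adjusted p = 0.00145). WT + TAM libraries had 5.41, 1.55, 5.27 and 5.38 and *Mtm1* KO + TAM libraries 52.5, 71.9, 18.1 and 37.4. The lowest of the treated knockouts, replicate 15, was still above every WT and WT + TAM library, and the rise was 10.2-fold (log2 3.35, SE 0.45, edgeR adjusted p = 8.65e-04).

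*Myh8*, the perinatal chain, was at 3.75, 4.99 and 3.76 normalized CPM in WT and 22.4, 22.7 and 29.6 in *Mtm1* KO, with little spread in either group. The rise was 6.08-fold (log2 2.60, SE 0.18, edgeR adjusted p = 2.14e-04). With tamoxifen it was at 15.8, 11.5, 8.73 and 11.4 in WT and 44.9, 74.2, 27.9 and 21.3 in *Mtm1* KO. This rise was 3.55-fold (log2 1.83, SE 0.34, edgeR adjusted p = 0.00492), and the call was lost without WT + TAM replicate 6 (adjusted p = 0.0143), 7 (0.016) or 8 (0.0154) or *Mtm1* KO + TAM replicate 13 (0.0128).

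**Figure D5:**
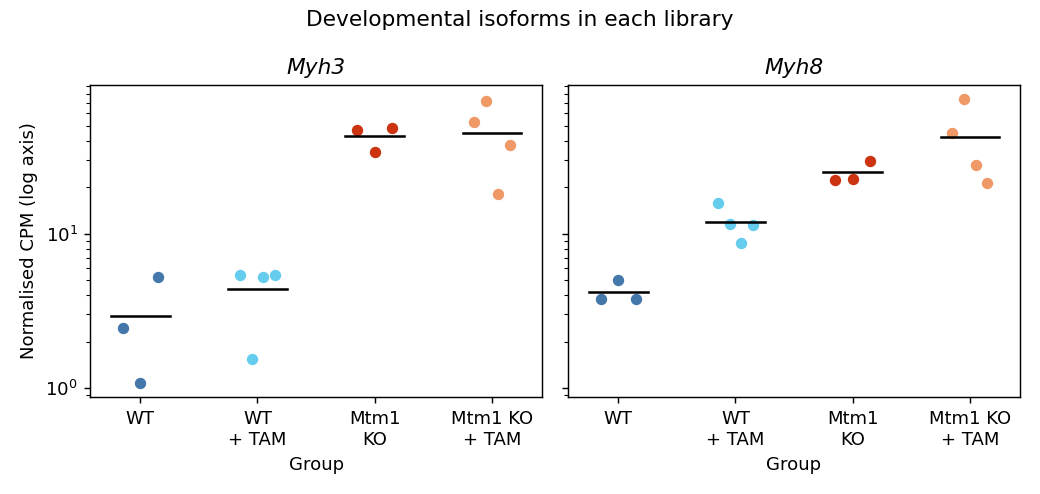
Points are the normalized CPM of single libraries (y axis, log scale) of *Myh3* (left) and *Myh8* (right) in the 4 groups (x axis), and bars are group means. The libraries of knockout mice, treated or not, lie at 18.1 or more for *Myh3* and 21.3 or more for *Myh8*, above the WT and WT + TAM libraries, which reach 5.41 and 15.8.

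Even so, the developmental chains made up a small part of the myosin. *Myh3* plus *Myh8* took 0.279% ± 0.0101 (SD, n = 3) of the members' counts in *Mtm1* KO, and with tamoxifen 0.328% ± 0.148 (SD, n = 4), against 0.017% ± 0.00789 (SD, n = 3) in WT and 0.039% ± 0.0113 (SD, n = 4) in WT + TAM. In WT replicate 3, which had the lowest *Myh3* share, 25 counts gave 0.00195% (Wilson 95% interval 0.00132 to 0.00288%). The ratio of *Myh8* to *Myh3* counts was 0.479 to 0.671 in *Mtm1* KO and 0.571 to 1.54 in *Mtm1* KO + TAM. In WT it was 0.714 to 4.64, on only 25 to 133 *Myh3* counts, and in WT + TAM 1.66 to 7.45.

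*Myh9*, the nonmuscle chain, was at 138, 119 and 103 normalized CPM in WT and 159, 116 and 129 in *Mtm1* KO, with overlap and no call (log2 0.19, SE 0.16, edgeR adjusted p = 0.471). With tamoxifen it was at 84.9 to 115 and 118 to 150 (log2 0.34, SE 0.13, edgeR adjusted p = 0.101). Its share of the members' counts was nonetheless higher in *Mtm1* KO, 0.483 to 0.622% against 0.216 to 0.317%, as the members' sum was lower there. *Myh11*, the smooth muscle chain of vessel walls, was at 60.0, 49.0 and 52.7 normalized CPM in WT and 38.0, 32.7 and 37.5 in *Mtm1* KO. The groups did not overlap, and the log2 fold change of -0.56 (SE 0.13) missed the threshold in edgeR's quasi-likelihood test (adjusted p = 0.0261), while DESeq2 called it (adjusted p = 0.0031). With tamoxifen in both genotypes the ranges, 36.8 to 64.5 and 32.9 to 42.7, overlapped (log2 -0.41, SE 0.16, edgeR adjusted p = 0.106). The 8 smooth muscle and pericyte markers summed to 694 to 859 normalized CPM in WT and 611 to 738 in *Mtm1* KO with 0 genes called, and none of the endothelial, fibroblast, leukocyte or fat cell markers was called in that comparison either. The leukocyte markers nonetheless summed to 99.9 to 117 normalized CPM in WT and 139 to 178 in *Mtm1* KO, without overlap, and to 49.0 to 128 in WT + TAM and 135 to 222 in *Mtm1* KO + TAM. The part of these cells in the *Myh9* and *Myh11* values was not tested.

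The effect of tamoxifen was asked within each genotype. In *Mtm1* KO + TAM against *Mtm1* KO, none of the 10 members was called, as was the case for all 15062 genes tested (0%). At an unadjusted p under 0.05, 2 members passed in edgeR, *Myh6* and *Myh7b*. The share of all genes at that threshold was not counted, so this number cannot be set against a background. DESeq2 and edgeR's exact test, which each called 72 genes, also called 0 members. *Myh6* and *Myh7b*, both scarce, were the 2 members without overlap, beside 7.69% of all genes. *Myh6* was at 1.06, 1.03 and 0.905 normalized CPM in *Mtm1* KO and 1.86, 2.86, 2.68 and 1.27 with tamoxifen (log2 1.10, SE 0.34, edgeR adjusted p = 0.406). *Myh7b* was at 3.29 to 3.52 and 4.04 to 6.39 (log2 0.55, SE 0.22, edgeR adjusted p = 0.558).

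*Myh4* differed between treated and untreated knockouts by less than the spread between mice, with a log2 difference of -0.07 (SE 0.21, edgeR adjusted p = 0.969) and a difference in share of -6.15 points (exact two-sided permutation test, p = 0.4). *Myh8* had a log2 difference of 0.74 (SE 0.35, edgeR adjusted p = 0.67) and *Myh7* of -0.59 (SE 0.57, edgeR adjusted p = 0.883). *Myh3* averaged 42.9 ± 7.92 normalized CPM (SD, n = 3) without and 44.9 ± 22.8 (SD, n = 4) with tamoxifen.

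In WT + TAM against WT, 0 of 10 members were called by edgeR's quasi-likelihood test, beside 0.131% of 14544 genes. *Myh8* had 3.75 to 4.99 normalized CPM in WT and 8.73 to 15.8 in WT + TAM, and the log2 difference of 1.51 (SE 0.23) missed the threshold (edgeR adjusted p = 0.0253), while DESeq2 (adjusted p = 1.99e-07) and edgeR's exact test (adjusted p = 3.65e-06) called it. *Myh6* was the other member without overlap, beside 11.4% of all genes, at 0.559 to 2.53 and 3.10 to 3.58 normalized CPM (log2 1.16, SE 0.42, edgeR adjusted p = 0.346). *Myh8* and *Myh6* were also the members with an unadjusted p under 0.05 in edgeR, a threshold at which the share of all genes was not counted. *Myh7b* had a log2 difference of 0.99 (SE 0.48, edgeR adjusted p = 0.496), *Myh3* of 0.58 (SE 0.54, edgeR adjusted p = 0.756) and *Myh4* of -0.13 (SE 0.21, edgeR adjusted p = 0.884). *Myh1*, *Myh2*, *Myh7*, *Myh9* and *Myh11* overlapped between these groups.

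Whether tamoxifen acted differently in the 2 genotypes was tested as an interaction, for which 0 members were called, as were 0% of 15556 genes. None of the members had an unadjusted p under 0.05, and DESeq2, which called 12 genes, called 0 members. *Myh8* had the lowest p among the members, with a tamoxifen effect smaller in *Mtm1* KO by 0.75 on the log2 scale (log2 -0.75, SE 0.47, unadjusted p = 0.128 in edgeR).

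The treated knockouts were also compared with untreated WT, which shares its groups with the comparisons above. *Myh3* (log2 3.93, SE 0.55, edgeR adjusted p = 0.0012, and log2 4.66 without WT replicate 4) and *Myh8* (log2 3.34, SE 0.41, edgeR adjusted p = 6.52e-04) were called higher, beside 3.56% of 14942 genes. *Myh4* was called lower (log2 -1.37, SE 0.24, edgeR adjusted p = 0.00365), beside 4.14%, and the call was lost without WT replicate 2 or without *Mtm1* KO + TAM replicate 13, 14 or 15 (adjusted p = 0.0101 to 0.0143). *Myh11* had a log2 difference of -0.54 (SE 0.12) and missed the threshold in edgeR's quasi-likelihood test (adjusted p = 0.0128). It was called by DESeq2 (adjusted p = 0.00228) and edgeR's exact test (adjusted p = 0.00322), and by the quasi-likelihood test with no filter (adjusted p = 0.00815) or without *Mtm1* KO + TAM replicate 16 (adjusted p = 0.00753).

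Other genes of the same fiber programs were taken from lists written by hand. Of 11 further fast fiber genes, 0 were called higher and 3 lower in *Mtm1* KO against WT, with a median log2 fold change of -0.86. The 3 were *Mybpc2*, the fast myosin binding protein C (log2 -1.51, SE 0.26, edgeR adjusted p = 0.00886), *Actn3*, the fast alpha-actinin (log2 -1.36, SE 0.22, edgeR adjusted p = 0.0069), and *Tpm1*, a tropomyosin (log2 -1.23, SE 0.19, edgeR adjusted p = 0.00534). With tamoxifen in both genotypes, 5 of the 11 were lower and the median was -0.72. Among the 11, *Mylpf*, *Tnnt3*, *Tnni2*, *Actn3* and *Casq1* also belong to the skeletal muscle markers above, so the lists are not independent. Of the 9 slow fiber genes named above, 0 were called in *Mtm1* KO against WT (median 1.06), and 3 were called higher with tamoxifen in both (median 1.46): *Tnni1*, the slow troponin I, *Myoz2*, a Z-disc protein, and *Atp2a2*, the slow SERCA pump.

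Of 9 developmental muscle genes, 5 were called higher and 1 lower in *Mtm1* KO against WT (median 1.86). *Myl4*, the light chain of embryonic and atrial muscle, rose by log2 3.70 (SE 0.20, edgeR adjusted p = 7.99e-05) and *Chrng*, the fetal acetylcholine receptor subunit, by log2 3.65 (SE 0.43, edgeR adjusted p = 0.00158). *Myog* (log2 1.95), *Tnnt2* (log2 1.86) and *Ncam1* (log2 1.52), a transcription factor of muscle differentiation, the cardiac and embryonic troponin T and a cell adhesion molecule, were the other 3. *Actc1*, the actin of fetal muscle and heart, went the other way, from 4500 to 10900 normalized CPM in WT to 547 to 1230 in *Mtm1* KO (log2 -2.88, SE 0.39, edgeR adjusted p = 0.00329). With tamoxifen in both genotypes, 6 of the 9 were called higher and 0 lower. *Actc1* was not called there but was again lower without overlap, at 2860 to 4190 normalized CPM in WT + TAM and 96.0 to 1720 in *Mtm1* KO + TAM.

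Among 13 regulators of myosin genes, *Tead4*, a TEAD factor that binds the MCAT element, was called higher in *Mtm1* KO against WT (log2 1.66, SE 0.26, edgeR adjusted p = 0.00574), and *Sox6*, a repressor of slow fiber genes, was called lower (log2 -0.98, SE 0.15, edgeR adjusted p = 0.00493). *Tead4* ranged from 3.23 to 5.18 normalized CPM in WT and from 10.7 to 18.7 in *Mtm1* KO, and *Sox6* from 110 to 138 and from 55.4 to 71.0. The other 11 were not called. Of 15 genes of myosin folding, thick filament assembly and turnover, *Hsp90aa1*, the chaperone that folds myosin heads with UNC45, was higher (log2 0.88, SE 0.14, edgeR adjusted p = 0.00562), and *Mybpc2* and *Trim55*, a sarcomere ubiquitin ligase (log2 -1.35, SE 0.24, edgeR adjusted p = 0.00943), were lower. With tamoxifen in both genotypes, 3 of the 13 regulators were called higher (*Mef2c*, *Myf6* and *Tead4*) and *Sox6* lower, and of the 15 genes 1 was called higher, *Myom3*, an M-band protein (log2 2.71, SE 0.12, edgeR adjusted p = 1.40e-06), while those called lower included *Mybpc2* and *Trim55*.

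The table holds 4 other *Myh* genes, of which *Myh10*, *Myh13* and *Myh14* passed the filter. None was called in *Mtm1* KO against WT. *Myh13*, the chain of extraocular muscle that lies next to *Myh8* on chromosome 11, was at 5.06 to 7.73 normalized CPM in WT + TAM and 1.43 to 2.89 in *Mtm1* KO + TAM and was called lower there (log2 -1.77, SE 0.25, edgeR adjusted p = 0.00133).

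The genes most like 3 of the members over the 14 libraries were sought by Pearson's r of log2 normalized CPM, among 9884 genes with a mean of at least 5. As the libraries fall into 2 genotypes, a high r arises for any gene that differs between them, and no p is given. For *Myh4*, the 3 highest were *Mybpc2* (r = 0.98), *Nt5dc3* (r = 0.98) and AI314180 (r = 0.98). For *Myh3*, they were *Camta1*, a calmodulin-binding transcription activator (r = 0.97), *Fhl2*, a LIM-domain protein (r = 0.97), and *Myl4* (r = 0.96). For *Myh7*, they were 3 slow-fiber genes, *Tnnc1* (r = 0.98), *Myl2* (r = 0.98) and *Tnnt1* (r = 0.96), the troponin C, regulatory light chain and troponin T of slow fibers.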

How the data were processed

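Quadriceps RNA of 16 mice was analyzed from 2 deposited tables. Per the authors, raw counts came from reads aligned with STAR to GRCm38 and counted on genes with HTSeq, and RPKM were made from these counts by library size and gene length. The submitters' processing notes name STAR 2.5.0c, Cufflinks 2.2.1 and bcl2fastq 2.17. The annotation, the strand setting and how reads with several matches were treated could not be taken from these sources. Counts were fitted per pair of groups with edgeR 4.0.16 (R 4.3.3), filterByExpr (minimum count 10, minimum total 15), TMM and the quasi-likelihood test, at an adjusted p of 0.01 as in the study, and the interaction in 1 fit of 4 groups. Shares were tested with exact two-sided permutation tests. The named genes were the members, *Mtm1*, list genes called in *Mtm1* KO against WT, and the 3 genes most like *Myh4*, *Myh3* and *Myh7*; others (Gm12300, *Myh13*, *Sln*, the list genes called only with tamoxifen) were chosen after their values were seen. Members and lists were chosen with earlier results of these data known. In data simulated with a log2 change of 2 in 200 genes, the test called 98.5% of them for *Mtm1* KO against WT and 92.5% for the interaction. In the measured data, the members' SE for the interaction ranged from 0.21 (*Myh9*) to 1.41 (*Myh7*) on the log2 scale. How often a change of that size would be called at each member's own spread was not tested. The alternatives tried were edgeR's exact test, DESeq2 1.42.0, limma 3.58.1 on log2 RPKM, other scalings and filters, 16 libraries and each library left out. 1 list gene called with tamoxifen is not reported here.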

Additional observations from a re-analysis of the deposited data

Results flagged for a closer look

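The share of *Myh3* among the members' counts in WT + TAM replicate 6 was 0.0033%, far below the 0.0125 to 0.0138% of the other 3 WT + TAM libraries, with 38 *Myh3* counts behind it. Its gap to the nearest library, relative to the range of the group, passed Dixon's 95% limit for 4 samples. It is also the WT + TAM library with the lowest *Myh7* level, 3.51 normalized CPM. With 20 groups of 4 values checked, chance alone flags about 1 in 20.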

How the results depend on the processing

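*Myh3* kept its call under each alternative tried in the 3 comparisons where it was called, and so did *Myh8* in *Mtm1* KO against WT and in *Mtm1* KO + TAM against WT and *Myh4* in *Mtm1* KO + TAM against WT + TAM. The number of members called in *Mtm1* KO against WT was 2, but 3 with edgeR's exact test, no filter or 1 fit of 4 groups, which add *Myh4*, and 4 with DESeq2 or a threshold of 0.05, which add *Myh4* and *Myh11*. These settings also called more of all genes. Of 14740 tested, the main fit called 282 higher and 249 lower, the exact test called 1452, DESeq2 1678 and the 0.05 threshold 1885. With no filter it was 1096 of 22672, and in 1 fit of 4 groups 987 of 15556. In *Mtm1* KO + TAM against WT + TAM it was 3, but 4 with no filter (*Myh2*), 5 with DESeq2, edgeR's exact test, limma at a pseudocount of 1 or a threshold of 0.05, and 6 with limma at a pseudocount of 0.1 or scaling by library size alone, as *Myh1*, *Myh2* or *Myh9* were added, and 2 without WT + TAM replicate 6, 7 or 8 or *Mtm1* KO + TAM replicate 13, as *Myh8* was lost. Of all 14563 genes tested there, the main fit called 498 higher and 481 lower. DESeq2 called 1995, the exact test 1826, the 0.05 threshold 2476 and scaling by library size alone 1874. Limma called 1616 and 1695 at pseudocounts of 1 and 0.1, and the fit with no filter 1243 of 22907. Without the libraries named, fewer genes were called, 538 to 689. In WT + TAM against WT it was 0, but 1 (*Myh8*) with DESeq2, the exact test, no filter or a threshold of 0.05, and in *Mtm1* KO + TAM against WT it was 3, but 4 with DESeq2, the exact test, a threshold of 0.05 or without *Mtm1* KO + TAM replicate 16 (*Myh11*), and 5 with no filter (*Myh1* and *Myh11*). Of all genes, WT + TAM against WT gave 19 calls in the main fit, 214 with DESeq2, 178 with the exact test, 81 with no filter and 80 at 0.05. In *Mtm1* KO + TAM against WT the main fit called 532 higher and 618 lower of 14942. There DESeq2 called 2375, the exact test 2091, the 0.05 threshold 2993 and the fit with no filter 1792 of 22622. Without *Mtm1* KO + TAM replicate 16 it was 1246 of 14748. The *Myh4* call in that last comparison was lost with 16 libraries, with limma and without WT replicate 2 or *Mtm1* KO + TAM replicate 13, 14 or 15, which leaves 2 members, and leaving out a library gave log2 values of -1.57 to -1.11 there. Signs turned only for values that were not called. *Myh7b* in *Mtm1* KO against WT became -0.0932 with 16 libraries, *Myh4* in *Mtm1* KO + TAM against *Mtm1* KO became 0.0107 with 16 libraries or with KO replicate 12 added, and *Myh4* in WT + TAM against WT became 0.0504 with 16 libraries. Without WT replicate 3 and WT + TAM replicate 6, a choice made after seeing the data, *Myh4* in WT + TAM against WT became 0.0415, *Myh7b* in *Mtm1* KO + TAM against WT + TAM -0.0943, and *Myh8* there missed the threshold (adjusted p = 0.0143). Leaving out each library in turn gave -0.945 to 0.0527 for *Myh6* in *Mtm1* KO against WT, -0.0943 to 0.283 for *Myh7b* in *Mtm1* KO + TAM against WT + TAM, and for *Myh4* -0.18 to 0.12 between treated and untreated *Mtm1* KO and -0.33 to 0.12 between treated and untreated WT. The cause of these shifts was not tested. The *Myh4* share stayed within the spread between mice under RPKM shares, shares of the 8 sarcomeric members and other sets of libraries. With all 16 libraries, however, the untreated genotypes overlapped, as WT replicate 1 (72.7%) lay below *Mtm1* KO replicate 11 (74.9%). No paired analysis was possible because the replicate numbers run on from 1 to 16 and the groups share none.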
